A study of Mus musculus with 7 samples.

Results

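Transcripts of skeletal muscle were followed in messenger RNA libraries of mouse fetal liver, for 10 genes that mark the skeletal muscle lineage. The genes are 4 myogenic factors (Myod1, Myog, Myf5 and Pax7) and 6 contractile genes (Mylpf, Tnnt1, Tnnt3, Tnni1, Acta1 and Myh3). They were taken by symbol from the gene names of the authors' deposited table and joined by identifier to the read counts. All 10 were found, out of 38924 genes in the count files and 15548 in the authors' table. The livers were collected at 12.5 days post coitum from 4 wild-type samples (replicates 1 to 4) and 3 Pcbp2 knockout samples (replicates 3 to 5). Strain, sex, litter, the design of the knockout allele and any pooling are not given in the labels, and no treatment is named.

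Skeletal muscle is built by a cascade of transcription factors. Pax7 marks muscle stem and progenitor cells, Myf5 and Myod1 commit cells to the lineage, and Myog drives their differentiation into fibres, after which sarcomere genes are switched on. Myf5, Myod1 and Myog bind a short DNA motif called the E-box. The diaphragm forms against the liver in the embryo, and the liver itself is not known to make muscle.

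The start regions of some of these genes are shown first, because the results turn on these genes and the E-box is the motif bound by Myf5, Myod1 and Myog. RefSeq (build GRCm38.p6, the same assembly as mm10) held a promoter for 8 of the 10 genes, and for 7 of them the bases before the RefSeq start contained a stretch free of annotated exons. For Mylpf, Tnnt1 and Tnni1 this stretch lies within the gene span of the GENCODE annotation, which places the start farther upstream. The 4 shown belong to Myog, the differentiation factor, to Mylpf, the contractile gene with the largest difference between genotypes, and to Acta1 and Myh3, whose levels varied most between libraries within a genotype. They are chr1:134289754-134289988 (plus strand), chr7:127211358-127211607 (plus strand), chr8:123894776-123895025 (minus strand) and chr11:67078050-67078299 (plus strand), printed 5′ to 3′ with each E-box, CANNTG, in capitals.
Myog: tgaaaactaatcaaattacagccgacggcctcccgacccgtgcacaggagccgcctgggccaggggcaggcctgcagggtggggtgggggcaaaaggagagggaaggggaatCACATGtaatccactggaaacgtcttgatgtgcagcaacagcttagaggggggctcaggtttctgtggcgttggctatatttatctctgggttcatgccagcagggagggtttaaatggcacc
Mylpf: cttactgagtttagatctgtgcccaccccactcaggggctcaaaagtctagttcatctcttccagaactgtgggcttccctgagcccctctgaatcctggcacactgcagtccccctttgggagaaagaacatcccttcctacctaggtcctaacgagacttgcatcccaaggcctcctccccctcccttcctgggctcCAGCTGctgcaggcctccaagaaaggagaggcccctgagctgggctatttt
Acta1: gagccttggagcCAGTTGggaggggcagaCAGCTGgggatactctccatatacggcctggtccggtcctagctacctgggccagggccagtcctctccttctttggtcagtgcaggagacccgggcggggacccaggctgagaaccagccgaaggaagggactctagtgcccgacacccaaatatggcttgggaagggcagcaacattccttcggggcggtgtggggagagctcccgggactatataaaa
Myh3: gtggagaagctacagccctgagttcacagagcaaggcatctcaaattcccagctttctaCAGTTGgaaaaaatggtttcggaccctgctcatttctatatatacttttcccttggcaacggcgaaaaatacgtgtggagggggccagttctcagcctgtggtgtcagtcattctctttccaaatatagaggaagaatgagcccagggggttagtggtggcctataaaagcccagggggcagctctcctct

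CANNTG reads the same on both strands and was present in 6 of the 7 regions, all but that of Myf5. It was also in 66.2% of 32851 promoter windows of 250 bases in the RefSeq table. The form CAGCTG, a special case of CANNTG, was in 3 of the 7 (Mylpf, Acta1 and Tnni1) and in 13.0% of all promoter windows. The regions of Myog, Tnnt1 and Tnni1 were shortened next to the start, where an exon is annotated. A match describes these letters and shows no binding.

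Reads assigned to genes numbered between 31898339 and 44544889 per library. Levels are given as CPM, counts scaled to a common library size with TMM factors. The upper limit behind a count of 0, taken as 3 reads, equals 0.0662 to 0.102 CPM depending on the library and covers counting error only. Pcbp2, the targeted gene, had 4868 to 14682 reads in the wild-type libraries and 63 to 78 in the knockout ones. Wild type replicate 1 stood apart with 165 CPM of Pcbp2, against 329 to 347 CPM in the other wild-type libraries. The defining liver genes Afp and Alb, the main plasma proteins of the fetal liver, averaged 4964 and 2373 CPM over the 7 libraries, so the samples carry the label's tissue. The labels do not say that each library came from a separate animal, so a p-value here reflects how much these libraries varied, which may be technical. In bulk tissue, fewer muscle cells and less muscle RNA per cell cannot be told apart.

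Skeletal muscle transcripts were found in every library of both genotypes. Together the 10 genes took 2489, 6727, 3422 and 4923 reads in wild type replicates 1 to 4 and 3776, 3863 and 4108 reads in knockout replicates 3 to 5. Summed CPM came to 84.3, 164, 93.6 and 113 in wild type and to 114, 85.2 and 117 in knockout. The highest and the lowest library were both wild type, and the knockout values lay between them. Tnni1 alone supplied 27.8% to 44.4% of these reads.

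None of the 10 genes differed between genotypes at an adjusted p under 0.05 in edgeR's quasi-likelihood test, fitted and adjusted over 16226 genes. Among all tested genes 5.02% passed, 1.59% (258) higher and 3.43% (556) lower in knockout. Scaling by total counts turned this balance to 651 higher and 393 lower, with none of the 10 genes called. At an unadjusted p under 0.05 there were 2 of the 10 genes, Myf5 and Mylpf, against 21.8% of all tested genes. DESeq2 on the same counts called 1, Mylpf, and limma-voom called 0. The median log2 difference, knockout minus wild type, was -0.02 over the 10 genes and 0.01 over all tested genes. It was 0.43 over the 4 factors and -0.06 over the 6 contractile genes.

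**Figure D1:**
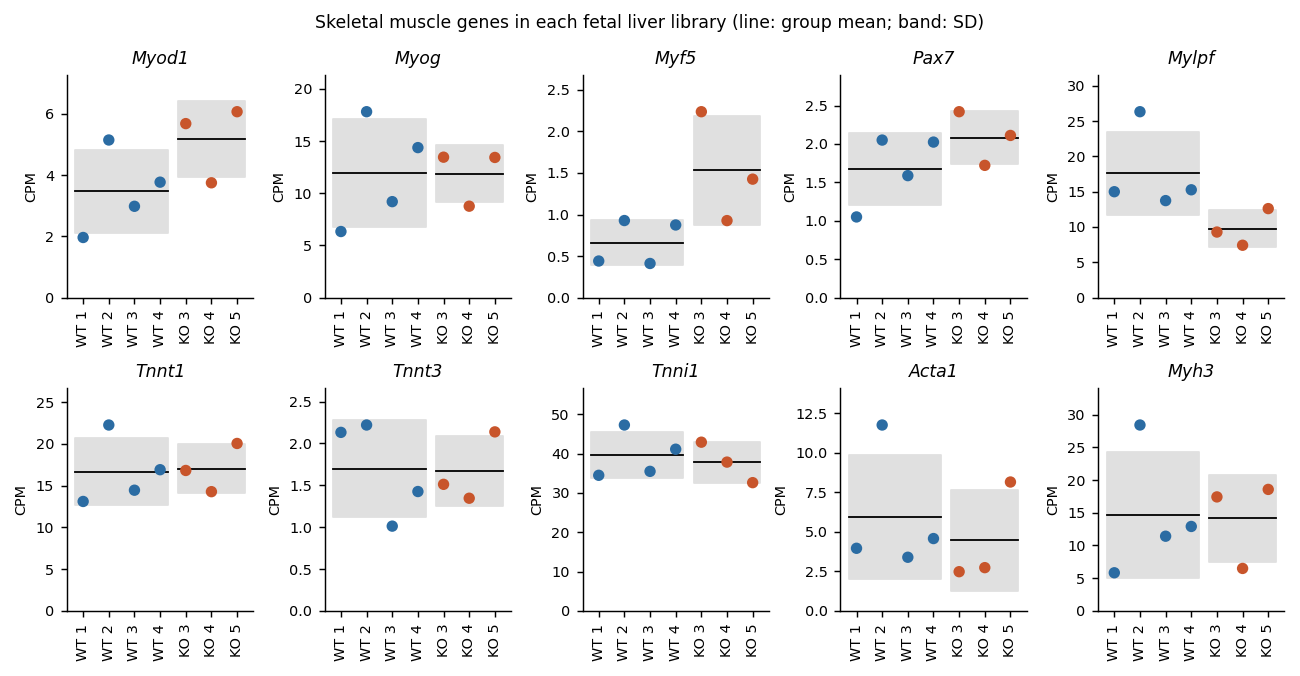
Level of each of the 10 skeletal muscle genes in CPM (y axis, from 0) in each library (x axis; WT, wild type, blue; KO, Pcbp2 knockout, orange), with the group mean as a line and the SD as a band. Wild type replicate 2 is the highest wild-type library in all 10 panels, and Mylpf is the panel in which the groups do not overlap.

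Pax7, the marker of muscle stem and progenitor cells (ENSMUSG00000028736.7, chromosome 4 from 139737062 to 139833528 in mm10), was at 1.05, 2.05, 1.59 and 2.02 CPM in wild type replicates 1 to 4. It was at 2.42, 1.72 and 2.11 CPM in knockout replicates 3 to 5. The groups overlapped, with wild type replicate 1 the lowest of the 7 libraries. The means were 1.68 ± 0.470 CPM (SD, n = 4) and 2.08 ± 0.350 CPM (SD, n = 3), a log2 difference of 0.30 ± 0.28 (SE; edgeR adjusted p = 0.574).

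Myf5, the earliest of the commitment factors (ENSMUSG00000000435.1, chromosome 10 from 107482908 to 107486134), had 13, 38, 15 and 38 reads in wild type and 74, 42 and 50 reads in knockout. In CPM these were 0.440, 0.927, 0.411 and 0.874 in wild type and 2.24, 0.927 and 1.43 in knockout. Knockout replicates 3 and 5 lay above all wild-type libraries, while knockout replicate 4 matched wild type replicate 2. The log2 difference was 1.18 ± 0.40 (SE), a 2.26-fold difference, with a 95% interval from 0.29 to 2.06, and it did not pass over all genes (unadjusted p = 0.0143, edgeR adjusted p = 0.121). In the authors' deposited table the log2 fold change of Myf5 was 1.04 with an adjusted p of 0.0593. Over the alternatives the difference ran from 0.80, without knockout replicate 3, to 1.44, without knockout replicate 4.

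Myod1, which commits cells to muscle (ENSMUSG00000009471.3, chromosome 7 from 46376474 to 46379099), was at 1.96, 5.15, 2.98 and 3.77 CPM in wild type and 5.69, 3.75 and 6.07 CPM in knockout. Knockout replicates 3 and 5 were the highest of the 7 libraries, and knockout replicate 4 lay within the wild-type range. The log2 difference was 0.57 ± 0.30 (SE; edgeR adjusted p = 0.307), with a 95% interval from -0.11 to 1.24.

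Myog, myogenin, the factor of fibre differentiation (ENSMUSG00000026459.4, chromosome 1 from 134289989 to 134292548), was at 6.33, 17.8, 9.20 and 14.4 CPM in wild type and 13.5, 8.76 and 13.4 CPM in knockout. It was the most abundant of the 4 factors, both in CPM and per length. Wild type held both the highest and the lowest library, 2.81-fold apart, and the group means were 11.9 ± 5.15 and 11.9 ± 2.70 CPM. The log2 difference was -0.01 ± 0.31 (SE; edgeR adjusted p = 0.985), and its 95% interval, from -0.70 to 0.67, leaves room for differences in either direction.

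Mylpf, the regulatory light chain of fast skeletal myosin (ENSMUSG00000030672.6, chromosome 7 from 127208890 to 127214298), was the gene of the 10 whose groups did not overlap. Such separation was seen for 20.6% of the genes tested. It was at 15.0, 26.3, 13.7 and 15.3 CPM in wild type and at 9.28, 7.41 and 12.6 CPM in knockout. The nearest libraries, wild type replicate 3 and knockout replicate 5, were close to each other, and wild type replicate 2 lay far above the rest. The means were 17.6 ± 5.87 CPM (SD, n = 4) and 9.77 ± 2.63 CPM (SD, n = 3), and the log2 difference was -0.85 ± 0.25 (SE), a 1.8-fold difference with a 95% interval from -1.41 to -0.29. It did not pass in the edgeR test (unadjusted p = 0.00686, adjusted p = 0.0824).

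The call on Mylpf depended on the tool and the filter. It passed with DESeq2 (adjusted p = 0.0112) and with no filter on low counts (edgeR adjusted p = 0.0335), and it had an adjusted p of 0.0875 with limma-voom. In the authors' deposited table the log2 fold change of Mylpf was -0.82 with an adjusted p of 0.00947, the single one of the 10 genes under 0.05 there. Leaving out wild type replicate 2 moved the log2 difference to -0.60 (edgeR adjusted p = 0.0856), and over all 7 libraries left out in turn it ran from -1.08 to -0.60. All 14 alternatives gave a negative difference.

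Tnni1, the slow skeletal troponin I, the inhibitory subunit of the calcium switch of the thin filament (ENSMUSG00000026418.10, chromosome 1 from 135779434 to 135810989), is also the form used by the fetal heart. It was the most abundant and the steadiest of the 10 genes in CPM, at 34.5, 47.2, 35.5 and 41.1 CPM in wild type and 42.9, 37.8 and 32.6 CPM in knockout. The highest and lowest of the 7 libraries differed 1.45-fold. The log2 difference was -0.07 ± 0.14 (SE; edgeR adjusted p = 0.816), with a 95% interval from -0.38 to 0.24.

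The troponin T genes, whose products tie the troponin complex to tropomyosin, overlapped between the groups. Tnnt1, the slow form (ENSMUSG00000064179.7, chromosome 7 from 4504570 to 4516382), was at 13.1, 22.3, 14.4 and 16.9 CPM in wild type and 16.8, 14.3 and 20.05 CPM in knockout. Its log2 difference was 0.03 ± 0.19 (SE; edgeR adjusted p = 0.950). Tnnt3, the fast form (ENSMUSG00000061723.11, chromosome 7 from 142498836 to 142516009), was at 2.13, 2.22, 1.01 and 1.43 CPM in wild type and 1.51, 1.35 and 2.14 CPM in knockout. Its log2 difference was -0.03 ± 0.32 (SE; edgeR adjusted p = 0.971). For Tnnt3 the 95% interval ran from -0.74 to 0.68, while for Tnnt1 it ran from -0.39 to 0.45.

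Acta1, skeletal alpha-actin of the thin filament (ENSMUSG00000031972.4, chromosome 8 from 123891769 to 123894751), was at 3.96, 11.8, 3.39 and 4.58 CPM in wild type and 2.48, 2.74 and 8.16 CPM in knockout. One library in each group, wild type replicate 2 and knockout replicate 5, stood far above the others. The log2 difference of -0.42 ± 0.51 (SE; edgeR adjusted p = 0.681) turned to 0.15 when wild type replicate 2 was left out and to -1.18 when knockout replicate 5 was. Actin genes are close relatives in sequence, so reads shared between them cannot be assigned with certainty.

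Myh3, the embryonic myosin heavy chain that is the first skeletal myosin of the embryo (ENSMUSG00000020908.8, chromosome 11 from 67078300 to 67102291), was at 5.82, 28.4, 11.4 and 12.9 CPM in wild type. In knockout it was at 17.4, 6.49 and 18.6 CPM. Wild type replicate 2 and wild type replicate 1 differed 4.88-fold, the widest wild-type range of the 10 genes. The log2 difference was -0.06 ± 0.48 (SE; edgeR adjusted p = 0.960), and it turned to 0.47 when wild type replicate 2 was left out. Like the actins, the myosin heavy chains form a family of similar genes.

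**Figure D2:**
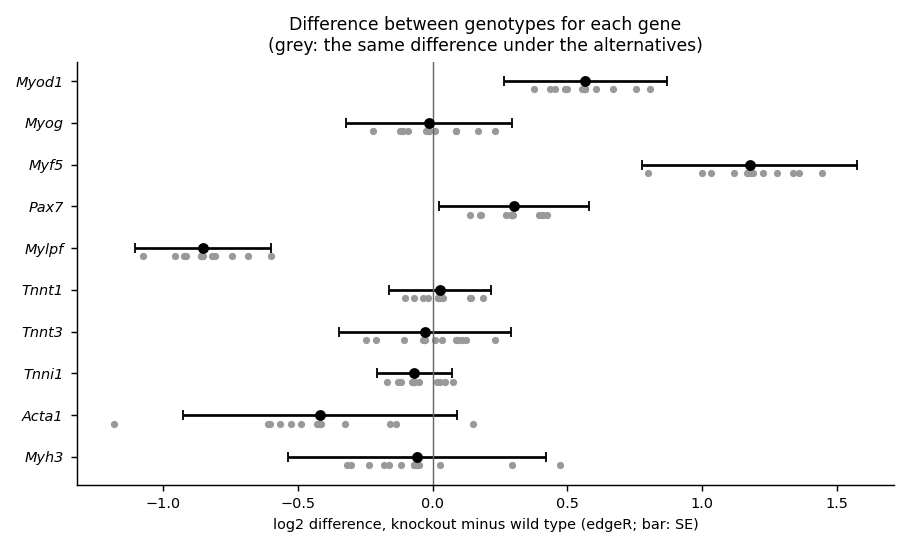
Log2 difference between knockout and wild type for each gene (x axis), as black points with their SE from the edgeR fit, and under each alternative as grey points. Myf5, Myod1 and Pax7 lie to the right of 0 and Mylpf to the left of 0 in every alternative fitted. The points of Acta1 spread from -1.18 to 0.15.

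Levels can be compared between genes per length, as CPM per kilobase of annotated exon. On this scale the order in wild type was Mylpf at 16.6 ± 5.53, Tnni1 at 11.0 ± 1.64, Myog at 7.98 ± 3.44, Tnnt1 at 7.57 ± 1.83 and Acta1 at 3.86 ± 2.55 CPM per kilobase. Below these came Myh3 at 2.42 ± 1.60, Myod1 at 1.86 ± 0.722 and Tnnt3 at 1.07 ± 0.366 CPM per kilobase. Myf5 and Pax7 were lowest, at 0.318 ± 0.132 and 0.286 ± 0.0801 CPM per kilobase. The ranges of mean ± SD overlapped between neighbours in this order, except between Tnnt3 and Myf5. In knockout Tnni1, at 10.5 ± 1.43 CPM per kilobase, came before Mylpf, at 9.20 ± 2.48. The lengths joined the exons of all annotated transcripts of a gene, so they can exceed that of the transcript present. They were 3600 bases for Tnni1 and 1062 for Mylpf. In wild-type CPM, Tnni1 at 39.6 was above Mylpf at 17.6, so their order here depends on these lengths.

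Within each genotype the same libraries were high or low for most of the genes. Wild type replicate 2 was the highest wild-type library for 10 of the 10 genes. Wild type replicate 1 was the lowest for 6 and wild type replicate 3 for the other 4. Among the knockout libraries replicate 4 was the lowest for 8 genes, replicate 5 the highest for 6 and replicate 3 the highest for 4. Over the wild-type libraries the median coefficient of variation of the 10 genes was 36.4%, against 12.3% for the 13845 tested genes whose mean reached 1 CPM. Over the knockout libraries these values were 24.6% and 11.2%.

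Ratios between genes of one library do not depend on how libraries are scaled. Of the 45 pairs among the 10 genes, 15 had read ratios that did not overlap between the genotypes. Among all pairs of tested genes with at least 10 reads in every library, 22.0% separated in this way. Myf5 was in 8 of the 15 pairs and Mylpf in 6, and 13 held at least one of them. These pairs share genes and are not independent, and they were picked out after their values were seen, so no test is given.

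The ratio of Mylpf to Myog reads was 2.37, 1.48, 1.49 and 1.06 in wild type and 0.690, 0.846 and 0.938 in knockout. The ratio of Mylpf to Tnnt1 was 1.14, 1.18, 0.951 and 0.903 in wild type and 0.552, 0.519 and 0.629 in knockout. Relative to each of the 4 factors and to both troponin T genes, every knockout library was below every wild-type library in Mylpf. Relative to the other 3 contractile genes the groups overlapped, for Tnni1 at 0.372 to 0.557 in wild type and 0.196 to 0.387 in knockout, for Acta1 at 2.24 to 4.05 and 1.55 to 3.74, and for Myh3 at 0.927 to 2.58 and 0.533 to 1.14. The ratio of Myog to Myod1 was 3.22, 3.46, 3.08 and 3.81 in wild type and 2.37, 2.34 and 2.21 in knockout, although neither gene's own level separated the groups. The ratio of Myh3 to Myog overlapped, at 0.920, 1.59, 1.24 and 0.898 in wild type and 1.29, 0.741 and 1.38 in knockout.

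**Figure D3:**
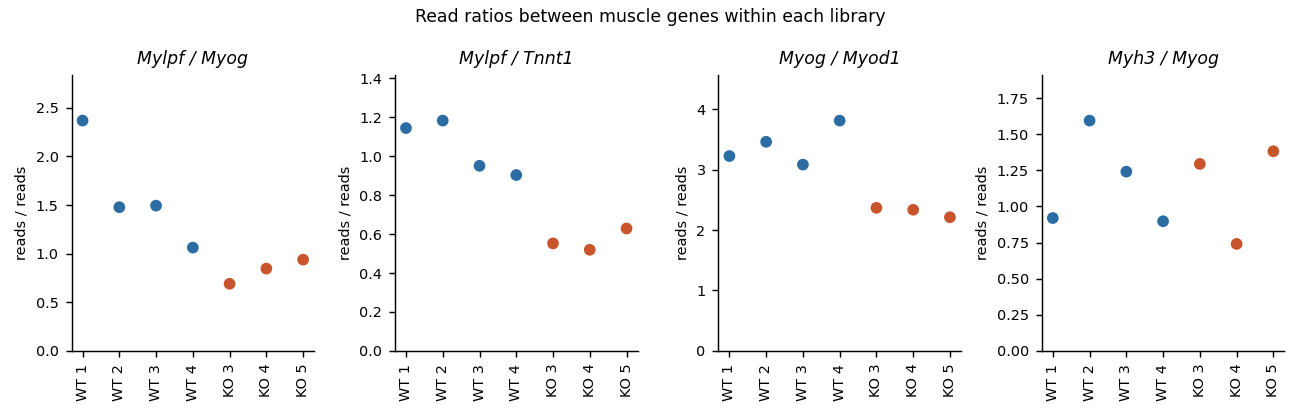
Read ratio within each library (y axis, from 0; x axis, library; blue, wild type; orange, Pcbp2 knockout) for Mylpf over Myog, Mylpf over Tnnt1, Myog over Myod1 and Myh3 over Myog. The groups do not overlap for the ratios of Mylpf and for Myog over Myod1, and they overlap for Myh3 over Myog.

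Other genes of the skeletal muscle programme were present in the same libraries. Of 21 further regulators and neuromuscular junction genes found, 19 were tested, 1 was higher and 0 were lower, with a median log2 difference of 0.23. The higher gene was Six4, a homeodomain factor of muscle and other organs, at 3.89, 5.22, 4.41 and 3.84 CPM in wild type and 8.89, 6.16 and 7.56 CPM in knockout. Its log2 difference was 0.79 ± 0.18 (SE; edgeR adjusted p = 0.0365). Six4 was no longer called when any 1 of 5 libraries was left out (wild type replicates 1, 3 and 4, knockout replicates 3 and 5), with edgeR adjusted p up to 0.140. Cdh15, the M-cadherin of myoblasts, was at 1.15 CPM in wild type replicate 1 and at 5.08 CPM in wild type replicate 2, the lowest and highest of the 7 libraries as for Myog and Myh3.

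Of 26 further skeletal sarcomere and calcium genes, 20 were tested and 0 passed in edgeR or limma-voom, with 5 at an unadjusted p under 0.05 and 2 called by DESeq2, 1 in each direction. Their median log2 difference was 0.40. The most abundant were Eno3, the muscle enolase, at a mean of 16.4 CPM over the 7 libraries, Myl1, a fast myosin light chain, at 9.44 CPM, and Neb, the giant thin filament ruler nebulin, at 7.92 CPM. The DESeq2 calls were Casq1, a calcium store protein, and Cacna1s, the voltage sensor of the muscle membrane, with edgeR log2 differences of 1.72 and -0.93 (edgeR adjusted p = 0.133 and 0.0804). Casq1 was at 4.84 CPM in knockout replicate 3 and at 0.440 to 1.08 CPM in the other 6 libraries. Myh8, the perinatal myosin heavy chain, did not overlap between the groups, at 2.61 to 7.83 CPM in wild type and 0.993 to 2.42 CPM in knockout (edgeR adjusted p = 0.184). Of the 26 genes, 2 lay wholly below wild type in knockout, Myh8 and Cacna1s, and 1 lay wholly above. Separation in either direction was seen for 20.6% of all tested genes.

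Several genes of mature fibres, and the factor Myf6, had few reads. Ckm, the muscle creatine kinase, had between 0.0547 and 0.228 CPM. Myh2, the adult fast myosin of oxidative fibres, had between 0 and 0.146 CPM, and Myh4, the fastest adult myosin, between 0.0339 and 0.293 CPM. Myf6, another myogenic factor, had between 0.0460 and 0.122 CPM. None of these 4, chosen after their values were seen, passed the filter on low counts. Other adult genes of the same list were higher. Myh1, another adult fast myosin, had 22 to 80 reads or 0.706 to 1.95 CPM, Atp2a1, the fast calcium pump, had 1.08 to 3.88 CPM, and Actn3, the fast alpha-actinin, had 1.35 to 2.68 CPM.

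Heart muscle genes, the nearest other source of striated muscle transcripts, shared only part of the order over the libraries. Summed over 17 genes they were at 186, 227, 185 and 225 CPM in wild type and 358, 197 and 241 CPM in knockout. Replicate 2 was the highest wild-type library and replicate 4 the lowest knockout one, as for the sum of the 10 genes. Knockout replicate 3, however, was the highest of the 7 libraries. Of the 17 heart genes 16 were tested and 5 were higher in knockout (Myh6, Nppa, Myl3, Tnni3 and Mybpc3), with a median log2 difference of 0.97. The number called was 1 with limma-voom and ran from 3 to 6 when single libraries were left out, with the 3 reached on dropping knockout replicate 5 or either of wild-type libraries 1 and 3. Mybpc3, the cardiac myosin-binding protein C, was at 0.0339, 0.317, 0.137 and 0.322 CPM in wild type and 12.3, 1.04 and 3.51 CPM in knockout. Its log2 difference was 4.69 ± 0.81 (SE; edgeR adjusted p = 0.0126, limma-voom adjusted p = 0.0661). Knockout replicate 3 was the highest of the 7 libraries for 10 of the 17 heart genes and for 2 of the 10 skeletal genes, while wild type replicate 2 was the highest for 1 heart gene and 7 skeletal genes. The defining heart gene Myh6 was at 0.220 CPM in wild type replicate 2, the library with the most reads of the 10 genes. It was at 37.9 CPM in knockout replicate 3. That library was also the highest for the summed 26 further skeletal sarcomere and calcium genes, at 111 CPM against 93.1 in wild type replicate 2. Gene by gene the order was the other way, with wild type replicate 2 the highest for 12 of the 26 and knockout replicate 3 for 7. For the 21 further regulators and junction genes the sums were 117 CPM in knockout replicate 3 and 114 CPM in wild type replicate 2. Mef2c alone supplied 71.6 and 68.6 CPM of them. Each of these libraries was the highest for 9 of the 21 genes.

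Striated muscle genes used by both tissues were highest in knockout replicate 3 for 12 of 16 genes. Actc1, cardiac alpha-actin, which early skeletal muscle also makes, was at 19.5, 59.9, 23.0 and 34.2 CPM in wild type and 156, 24.0 and 71.7 CPM in knockout. Among the wild-type libraries replicate 2 was again the highest. Of the 16 shared genes, 14 were tested and 1 was higher (3 with DESeq2 or no filter on low counts, 0 with limma-voom, and 0 to 4 with single libraries left out), Csrp3, a protein of the sarcomere's Z-disc (log2 3.36 ± 0.83, edgeR adjusted p = 0.0476). Csrp3 was not called by limma-voom (adjusted p = 0.202), nor by edgeR when any 1 library other than wild type replicate 2 or knockout replicate 4 was left out. Tnni1, Acta1 and Tnnt1 were at 42.9, 2.48 and 16.8 CPM in knockout replicate 3. The part that heart transcripts play in these levels was not tested.

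**Figure D4:**
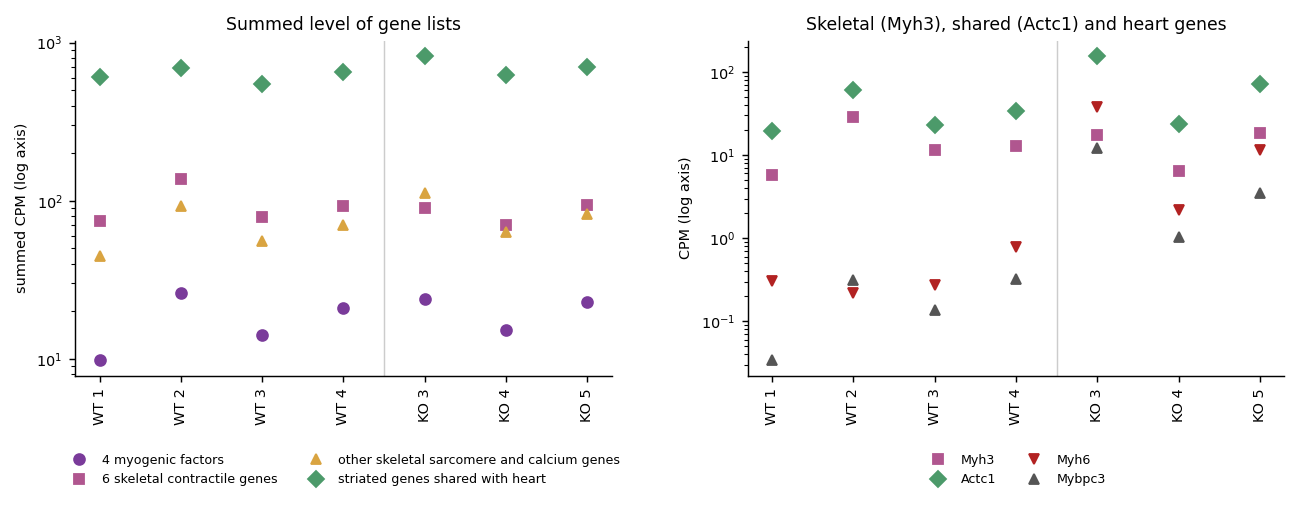
Left, summed CPM (log axis) of the 4 myogenic factors, the 6 contractile genes, other skeletal sarcomere and calcium genes and genes shared with heart in each library (x axis), and right, CPM of Myh3 (skeletal), Actc1 (shared) and the heart genes Myh6 and Mybpc3 (log axis). In the sum of genes shared with heart, Tpm1 alone supplies 469 to 558 CPM depending on the library. Wild type replicate 2 is highest for the 6 skeletal contractile genes at 138 CPM. Knockout replicate 3 is highest for the sum of the other skeletal sarcomere and calcium genes, at 111 CPM, and for Myh6, at 37.9 CPM.

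Markers of other tissues were set beside the same libraries. Summed over 11 nerve and adrenal genes, wild type replicate 2 had 66.1 CPM, against 16.7 to 29.0 in the other wild-type libraries and 25.6 to 38.4 in knockout. Summed over 9 tendon and cartilage genes it had 106 CPM, against 50.2 to 65.5 in the other wild-type libraries and 70.9 to 80.6 in knockout. Summed over 10 liver genes it had 5293 CPM, the lowest of the 7 libraries, where the others had 7072 to 11949 CPM. In summed CPM wild type replicate 2 was thus high for the 10 muscle genes, for nerve and adrenal genes and for tendon and cartilage genes. It was low for liver genes. It was also the highest of the 7 libraries for 7 mesothelial genes, at 444 CPM. For 9 smooth muscle genes it was the highest wild-type library, at 322 CPM. For 8 erythroid genes it was the lowest wild-type library, at 3270 CPM, though above the knockout ones. The part of other tissue in the skeletal muscle levels was not tested.

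Among smooth muscle, mesothelial, erythroid and other lists, calls in either direction were found in the first 3. Of 9 smooth muscle genes 1 was higher, Acta2, smooth muscle actin (log2 0.59 ± 0.15, edgeR adjusted p = 0.0483, up to 0.155 when a library was left out), and the median was 0.38. Of 7 mesothelial genes 1 was lower, Gpm6a, a membrane glycoprotein (log2 -0.58 ± 0.12, edgeR adjusted p = 0.0258, up to 0.139 when a library was left out), and the median was -0.41. Of 8 erythroid genes 4 were lower and 0 higher, with a median of -0.95. That count was 1 without knockout replicate 5, 2 without wild type replicate 3 or knockout replicate 4, and 8 without wild type replicate 2. No tendon and cartilage gene (6 tested, 3 at an unadjusted p under 0.05), nerve or adrenal gene (9 tested, 0) or liver gene (10 tested, 1) passed with edgeR or limma-voom, and DESeq2 called 1, 0 and 1 of them. With edgeR, 2 tendon and cartilage genes were higher and 2 liver genes lower when wild type replicate 2 was left out, and 2 and 1 with no filter on low counts.

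The genes outside these lists whose levels were most like the sum of the 10 genes were sought among 13513 tested genes whose mean reached 0.5 CPM. Among the 8 highest by Pearson's r of log2 CPM over the 7 libraries were Cgnl1, Ahnak, Mcf2, Aph1b, Nub1, Paqr3 and Tmem151b, with r from 0.985 for Cgnl1 to 0.941 for Tmem151b. They are the top of a long list over 7 points that share their libraries, and no p is given. Cgnl1, a protein of cell junctions, ranged from 50.4 to 62.4 CPM, a 1.24-fold range, where the 10 genes had ranges of 1.45-fold or more. Without wild type replicates 1 and 2, the libraries farthest from the median, r over the other 5 was 0.963 for Cgnl1 and 0.981 for Ahnak, but 0.846 for Nub1 and 0.796 for Paqr3. Among the 10 genes themselves, r of each with the sum of the other 9 ran from 0.432 for Myf5 to 0.933 for Tnnt1. The correlation of ranks (Spearman's rho) ran from 0.25 for Mylpf to 0.893 for Myh3.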

How the data were processed

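Messenger RNA had been sequenced from 7 fetal liver samples. Per the labels, the extraction reagent was Trizol and the kit TruSeq stranded mRNA. The submitters' processing notes name cutadapt 1.4.2, TopHat2, HTSeq, DESeq2, DESeq and build mm10. For settings, such as strand, and for the annotation release, the sources used here say nothing. Each sample's deposited file gives counts for 38924 genes, not normalized, and 5 HTSeq summary lines that were left out. Reads in no annotated gene made up 4.89% to 7.61% of a library. In the authors' deposited table the signal column is an average over normalized counts, the change a log2 fold change with its SE, the test score a Wald statistic, and the p-value is given unadjusted and adjusted.

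Counts were fitted with edgeR 4.0.16 in R 4.3.3 (filterByExpr defaults, TMM, quasi-likelihood test, group as the only term, all 7 libraries, Benjamini-Hochberg adjustment over 16226 genes), and the code was tested on simulated data. Gene positions and exon lengths came from GENCODE M21, matched without identifier version; no exon of another annotated gene overlaps an exon of the 10. Log2 CPM for likeness used a prior count of 0.5. The 10 genes and the other lists were chosen with earlier results of these data known. Named genes outside the 10 are those called or, per list, the most abundant, and the 8 most alike, of which 1 is not reported here; Cdh15, Casq1, Cacna1s, Myh8, Ckm, Myh1, Myh2, Myh4, Myf6, Atp2a1, Actn3 and the ratios were chosen after their values were seen. Alternatives were RLE factors, total counts, other filters, limma-voom (limma 3.58.1), DESeq2 1.42.0, a replicate block and each library left out.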

Additional observations from a re-analysis of the deposited data

Results flagged for a closer look

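In the wild-type group of 4 libraries, wild type replicate 2 lay farther from the other 3 than Dixon's 95% criterion allows for 2 of the 10 skeletal muscle genes, a criterion that chance meets in about 1 in 20 groups. It had 26.3 CPM of Mylpf, where the gap to the next library was 0.878 of the whole range, and 11.8 CPM of Acta1, where the gap was 0.859 of the range. The knockout group of 3 was not examined in this way.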

How the results depend on the processing

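No skeletal muscle gene was called higher under any of the 14 alternatives. The number called lower was 0 under all but 3 of them and 1, Mylpf, with no filter on low counts, with DESeq2 and with the replicate block (edgeR adjusted p = 0.00101). Without single libraries it stayed 0, and the adjusted p of Mylpf ran from 0.0856 to 0.211. Over all genes, total counts gave 651 higher and 393 lower, DESeq2 617 higher and 1057 lower, and the replicate block 852 higher and 1204 lower, against 258 and 556. The replicate block also raised the number of shared striated genes called higher from 1 to 6, of liver genes called lower from 0 to 5, of erythroid genes called lower from 4 to 8, of smooth muscle genes called higher from 1 to 4, of mesothelial genes called lower from 1 to 2 and of tendon and cartilage genes called higher from 0 to 2. Without single libraries the numbers ran from 24 to 418 higher and from 116 to 753 lower. Total counts moved the median of all genes from 0.01 to 0.14.

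Of 139 log2 differences of the 10 genes over the alternatives, 24 changed sign, in 6 genes and each with an adjusted p of 0.5 or more. With total counts Myog was at 0.087, Tnnt3 at 0.088, Tnni1 at 0.047 and Myh3 at 0.029. With limma-voom Myog was at 0.0092 and Tnnt3 at 0.0082. With the replicate block Tnnt1 was at -0.016, Tnnt3 at 0.23 and Tnni1 at 0.075. With each library left out in turn, Myog ran from -0.22 to 0.23, Tnnt1 from -0.10 to 0.19 and Tnnt3 from -0.25 to 0.12. Tnni1 ran from -0.17 to 0.028, Acta1 from -1.18 to 0.15 and Myh3 from -0.32 to 0.47. Myf5 could not be fitted with at least 1 CPM in 3 libraries, which its level did not reach. The cause of these changes was not tested.

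Only numbers 3 and 4 occur in both groups and no label ties them to shared animals. Deviations from the group means correlated at 0.307 between the samples numbered 3 and at 0.237 between those numbered 4. Between wild-type and knockout samples of unlike number the values were all lower, from -0.317 to 0.145. What the numbers stand for was not tested. Genes such as Myf5, with 13 to 74 reads, are limited by depth.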
